A study of Rattus norvegicus with 5 samples.

Results

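The genes described here are 10 members of the Hippo and YAP pathway, given as a list of names: Yap1, Tead1, Ccn1, Ccn2, Ankrd1, Amotl2, Lats2, Ajuba, Axl and Ptpn14. Each was looked up by the transcript accession printed for every array probe. A probe was found for 8 of the 10 genes, among 15154 genes with a probe in all, and each of the 8 was well above background in at least 1 culture condition on at least 1 array. Yap1 and Ptpn14 were not paired with a probe and are not analysed further.

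FRT is a rat thyroid cell line of the Fischer strain, with epithelial character. Cells grown as follicles in Matrigel, a gel of basement membrane proteins (3D), were compared at day 5 with confluent monolayers (2D), with no other treatment or genetic change in either group. Each of 4 replicate arrays carried 1 3D culture in the red dye Cy5 and the same pool of 4 2D cultures in the green dye Cy3. On a further array the dyes were swapped, so that the 2D pool was red and a pool of the 3D cultures was green.

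Hippo signalling is a kinase cascade that is favoured by cell contact, cell polarity, a soft matrix or a rounded cell shape. Its last kinases, LATS1 and LATS2, phosphorylate the coactivators YAP and TAZ and keep them out of the nucleus. Nuclear YAP and TAZ have no DNA-binding domain of their own and act through the TEAD factors, whose best known targets include Ccn1, Ccn2 and Ankrd1, and several targets (Lats2, Amotl2, Ajuba, Ptpn14) encode proteins that act back on the cascade.

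TEAD factors bind the letters GGAATG, which read CATTCC on the opposite strand. The 250 bases before the start of a single RefSeq transcript per gene (rat assembly GRCr8) were searched for both spellings. For Amotl2 this stretch (chr8:112182376-112182625) lies inside the gene range given below, so the transcript used starts within the gene. The stretches of Yap1, Axl and Ptpn14 overlap their gene ranges in part. The promoters of Ccn2 and Ccn1 are shown because these genes were among those with the largest differences between cultures. Ajuba is shown in full, and Amotl2 by its site alone, because their promoters hold the same letters beside smaller differences. Sequences run 5′ to 3′ along the gene, with the TEAD letters in capitals.
Ccn2 promoter, chr1:22624615-22624864, minus strand: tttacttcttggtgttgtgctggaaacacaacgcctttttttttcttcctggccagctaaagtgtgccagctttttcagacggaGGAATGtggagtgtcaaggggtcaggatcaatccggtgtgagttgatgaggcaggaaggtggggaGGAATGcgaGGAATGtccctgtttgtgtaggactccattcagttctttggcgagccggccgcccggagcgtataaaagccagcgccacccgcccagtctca
Ccn1 promoter, chr2:237225690-237225939, minus strand: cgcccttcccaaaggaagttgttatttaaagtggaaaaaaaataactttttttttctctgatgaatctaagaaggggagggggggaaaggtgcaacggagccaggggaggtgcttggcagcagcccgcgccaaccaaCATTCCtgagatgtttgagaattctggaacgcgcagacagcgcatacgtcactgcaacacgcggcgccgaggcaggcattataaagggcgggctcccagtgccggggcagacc
Ajuba promoter, chr15:32000043-32000292, minus strand: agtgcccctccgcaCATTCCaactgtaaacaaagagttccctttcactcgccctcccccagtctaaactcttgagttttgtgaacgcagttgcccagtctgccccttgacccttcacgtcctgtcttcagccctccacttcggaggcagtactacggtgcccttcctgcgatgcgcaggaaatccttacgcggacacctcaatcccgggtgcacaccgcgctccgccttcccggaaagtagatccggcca
Amotl2 site, chr8:112182540-112182565, plus strand: gaaactctcaCATTCCtggcatagca

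The promoter table held an entry for 7 of the 10 members, with none for Tead1, Ankrd1 and Lats2. Of these 7 promoters, 6 held the TEAD letters, against 11.8% of all 27457 promoters of the same length. Ccn2 held 3 copies, which started 166, 101 and 92 bases before the transcript start, and 3 or more copies were found in 0.0911% of all promoters. Ccn1, Amotl2, Ajuba, Yap1 and Ptpn14 each held 1 copy, at 113, 76, 236, 116 and 135 bases before the start, and Axl held none. The letters TGANTCA (the AP-1 site), found in 6.36% of all promoters, and the CArG box of serum response factor, found in 1.5%, occurred in none of the 7. The members were listed partly because they are known TEAD targets, so these shares are descriptions. Over the 12384 genes with both a probe and a promoter, the median log2 difference between 3D and 2D was 0.00 for the 11058 genes without the TEAD letters, 0.00 for the 1235 with 1 copy, -0.02 for the 82 with 2 and -0.09 for the 9 with 3 or more, Ccn2 included.

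Values are log2 ratios of 3D over 2D after normexp background correction with an offset of 50 and loess normalization, with the sign of the swapped array turned, so a negative value means less signal in 3D. A gene passed when its limma adjusted p over all genes, from the 5 arrays together, was below 0.01. All arrays lay on 1 slide and none of the 58717 spots of an array was saturated. The median signal was 103 to 117.5 in red and 47 to 54 in green. Across all genes, r between pairs of replicate arrays was 0.871 to 0.946, and r of the swapped array with each replicate was 0.734 to 0.764. The 2D pool was shared by every ratio, so the spread between 2D cultures does not enter any test, and the swapped array, made from pools, adds no further culture. Epithelial identity was checked with 13 fixed markers, of which 9 were above background, while the thyroid genes Nkx2-1, Slc5a5, Tg and Tshr were not.

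Of the 8 measured members, 6 passed as lower in 3D, and none as higher. Ccn2, Axl, Ccn1 and Ankrd1 differed most, and Ajuba and Lats2 differed less and with less agreement between arrays. Over all genes 25.9% passed, 11.5% as lower and 14.4% as higher, and among the 9018 genes above background in at least 1 condition 43.4% passed. The log2 ratio was below 0 in 40 of 40 combinations of a member and an array, and all 8 members were lower on all 5 arrays, as were 16.9% of all genes. The shares of 11.5%, 14.4% and 16.9% include genes below background, whereas all 8 members were above it in at least 1 condition. The median of the 8 members was -0.43, with -0.38, -0.51, -0.54 and -0.50 on replicates 1 to 4 and -0.35 on the swapped array, beside 0.00 for all genes. In RNA from whole cultures, a smaller share of cells with a transcript and less of that transcript in each cell cannot be told apart. Leaving out replicate 2, 3 or 4 left 4 members that passed. Where each array was centred on its median instead of by loess, 0 members passed, and 0 of all genes passed as lower. There the log2 fold changes of Amotl2, Lats2 and Ajuba over the 5 arrays were above 0.

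**Figure D1:**
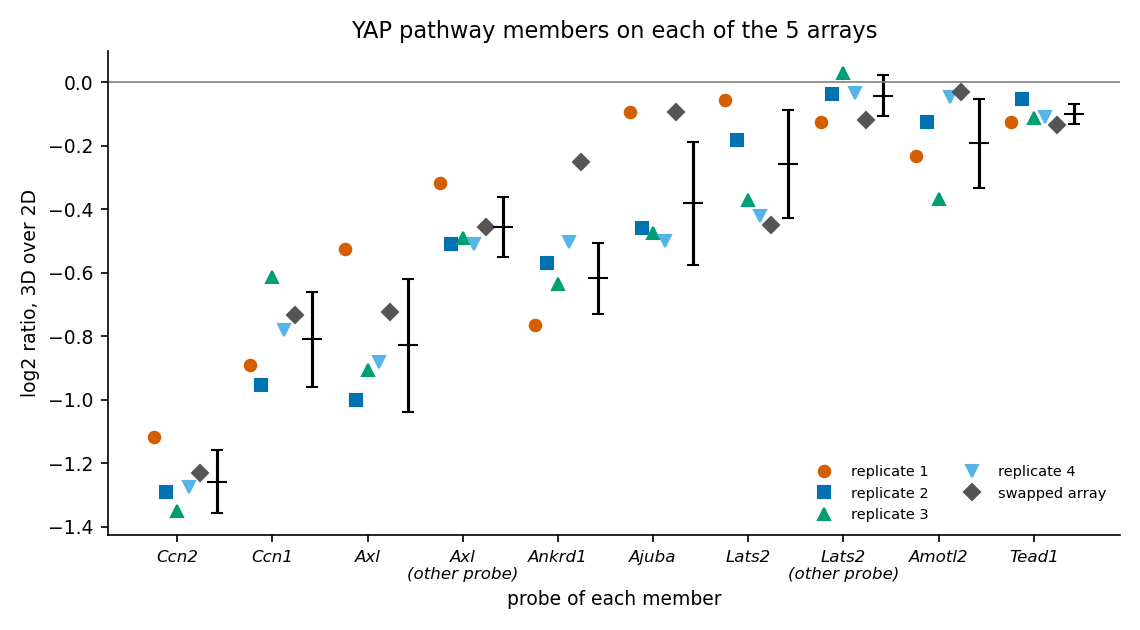
Log2 ratio of 3D over 2D (vertical axis) of every probe of the 8 measured members on each of the 5 arrays, with 1 point for each array and, beside them, the mean and SD of the 4 replicates. Under loess, points of the probes used for the genes lie below 0, from -0.03 for Amotl2 on the swapped array to -1.35 for Ccn2 in replicate 3. When arrays are centred on the median, the log2 fold changes of Amotl2, Lats2 and Ajuba over the 5 arrays, which are not plotted here, are above 0.

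Tead1 encodes the TEAD factor on this list, a DNA-binding partner of YAP and TAZ (GRCr8 chr1:176227175-176445122). Its log2 ratio was -0.12, -0.05, -0.11 and -0.11 in replicates 1 to 4 and -0.13 on the swapped array. The array means lay close together, but the probe, with 2 spots per array, was dim. It exceeded background on 2 of 5 arrays in 3D and 4 of 5 in 2D. Within replicate 2 its spots were at -0.34 and 0.24. The log2 fold change was -0.11 (standard error 0.04) and did not pass (limma adjusted p = 0.0585).

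Ccn2, formerly connective tissue growth factor, encodes a secreted matricellular protein (chr1:22621498-22624614), and its promoter holds the 3 TEAD copies shown above. The scanner-processed signal in 2D was 367.1, 305.5, 290.3, 267 and 308.2 on replicates 1 to 4 and the swapped array, against 100.8, 44, 30.72, 30.58 and 52.27 in 3D. Every 3D value lay under every 2D value, and the 3D signal of replicate 3 was not well above background. The log2 ratio was -1.12, -1.29, -1.35, -1.27 and -1.23 in the same order.
The log2 fold change of Ccn2 was -1.25 with a standard error of 0.04 (limma adjusted p = 9.59e-08), which is 2.38-fold lower in 3D, and 0.475% of all genes had a lower value. That size depends on the offset, which shrinks ratios of dim spots. The processed signals themselves differed between 3.64-fold in replicate 1 and 9.45-fold in replicate 3, and the log2 fold change was -2.16 with an offset of 0 and -2.73 with the processed signals.

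Ccn1, formerly Cyr61, encodes another protein of this family that binds integrins (chr2:237222730-237225689), and it was read from a single spot on each array. The processed signal in 2D was 675.7, 560, 501.5, 613.5 and 542.7, and that in 3D was 286.1, 200.6, 256.2, 298 and 309.8. The highest 3D signal lay below the lowest 2D signal. Its log2 ratio was -0.89, -0.95, -0.61 and -0.78 in the replicates and -0.73 with dyes swapped. The log2 fold change was -0.79 (standard error 0.05, limma adjusted p = 3.56e-06), or 1.73-fold lower in 3D.

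Ankrd1 encodes an ankyrin repeat protein of the nucleus and sarcomere that is induced by YAP and by stretch (chr1:243228460-243237014). Processed signals were 871.6, 754.6, 792.2, 706.3 and 632.3 in 2D and 454.6, 459.5, 476.5, 443.9 and 502.9 in 3D. The swapped array gave the smallest gap. The log2 ratio was -0.76, -0.57, -0.64 and -0.50 in the replicates but -0.25 on the swapped array, and a dye term added to the model was -0.18 (limma adjusted p = 0.0656). Without that term the log2 fold change was -0.54 (standard error 0.07, limma adjusted p = 1.67e-04), and with it -0.43.

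Axl encodes a receptor tyrosine kinase of the TAM family that binds the ligand Gas6 (chr1:90392864-90424123). Its log2 ratio was -0.52 in replicate 1, -1.0, -0.91 and -0.88 in replicates 2 to 4, and -0.72 on the swapped array. Replicate 1 was the nearest to 0, and the processed 3D signal was 456.1 there against 259.8 to 313.1 in replicates 2 to 4, while the 2D signal was 746.7 against 654.2 to 711.4. The log2 fold change was -0.81 (standard error 0.07, limma adjusted p = 1.17e-05). A further Axl probe, designed on another transcript record, gave -0.32, -0.51, -0.49, -0.51 and -0.45 in the same order. It also passed when adjusted over all probes, at -0.46 (standard error 0.05, limma adjusted p = 3.29e-05), with the same replicate nearest to 0. This probe was dimmer, with processed signals of 56.26 to 90 in 3D and 145.6 to 166.7 in 2D, where the offset shrinks ratios. Its processed log2 ratios were -0.89, -1.22, -1.11, -1.37 and -0.99. Those of the probe used for the gene were -0.71, -1.43, -1.18, -1.32 and -0.92.

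**Figure D2:**
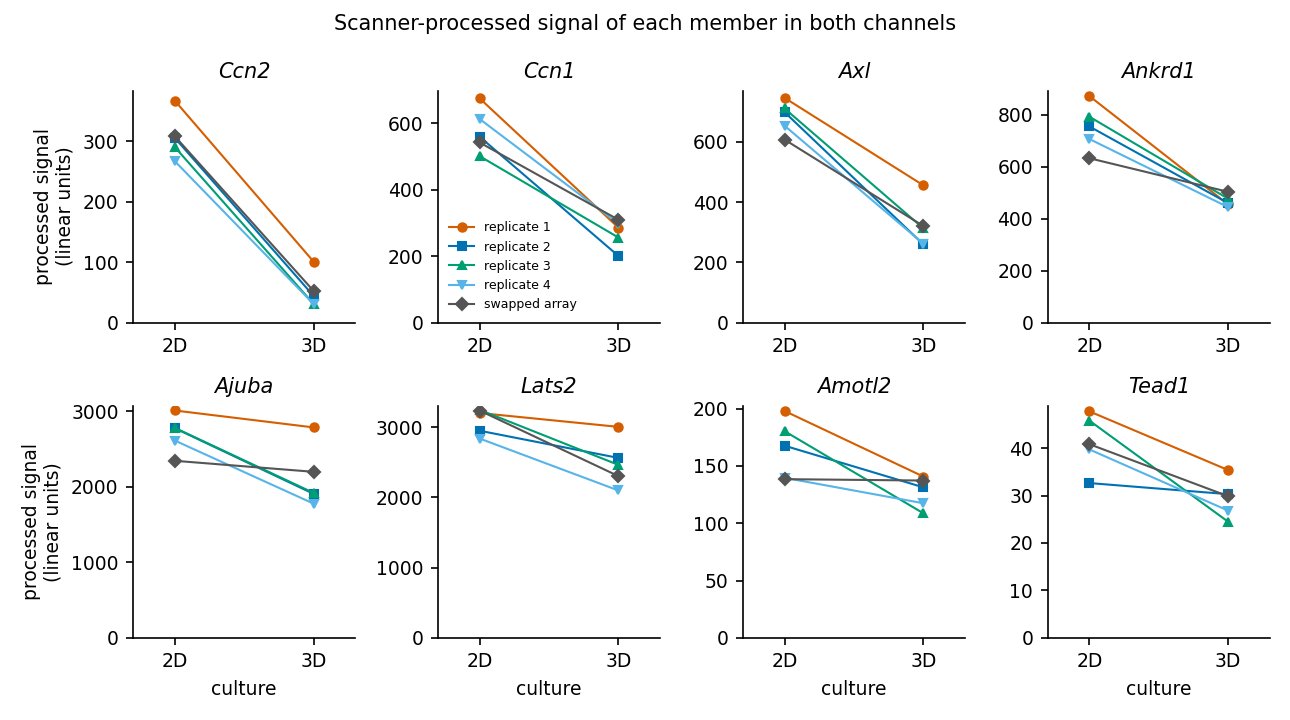
Scanner-processed signal (vertical axis, linear units from 0) of each measured member in 2D and 3D, with a line for each of the 5 arrays. For Ccn2 the lines fall from 267 to 367.1 in 2D to between 30.58 and 100.8 in 3D, whereas for Amotl2 they are nearly level on the swapped array, at 138.4 in 2D and 137.2 in 3D.

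The remaining measured members are YAP targets whose proteins act on the cascade. Lats2, the kinase that phosphorylates YAP and TAZ (chr15:35940632-35992225), had log2 ratios of -0.06, -0.18, -0.37 and -0.42 in replicates 1 to 4 and -0.45 on the swapped array. These values ranged from nearly 0 to a clear difference, and the mean of the replicates was -0.26 ± 0.17 (SD, n = 4). The log2 fold change was -0.30 (standard error 0.06, limma adjusted p = 0.00449). The call was lost without replicate 2, 3 or 4, with adjusted p of 0.0104, 0.0233 and 0.0245 in limma, and under median centring the value was 0.24. The other Lats2 probe gave -0.13, -0.04, 0.03, -0.03 and -0.12 in the same order. It did not pass, at -0.06 (standard error 0.04, limma adjusted p = 0.413 over all probes), so the difference seen at Lats2 held for 1 of its 2 probes. This other probe was far dimmer, with processed signals of 64.06 to 119.4 in either culture, where the offset shrinks ratios. The probe used for the gene had 2097 to 3244.

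Ajuba encodes a LIM protein that binds LATS kinases at cell junctions and under tension limits their activity (chr15:31989796-32000042). Its log2 ratio was -0.09 in replicate 1 and on the swapped array, but -0.46, -0.48 and -0.50 in replicates 2 to 4. Processed signals were 3010, 2776, 2780, 2612 and 2344 in 2D and 2786, 1907, 1919, 1777 and 2198 in 3D. The 3D signals of replicates 2 to 4 lay under those of the other pair of arrays. The log2 fold change was -0.32 (standard error 0.07, limma adjusted p = 0.00645). It was -0.29, -0.29 and -0.28 without replicate 2, 3 or 4 and -0.24 with a dye term, none of which passed, and 0.21 under median centring.

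Amotl2 encodes an angiomotin-like protein that binds YAP in the cytoplasm and at junctions (chr8:112182060-112198032). The log2 ratio was -0.23, -0.12, -0.37 and -0.04 in the replicates and -0.03 with dyes swapped. The spread between replicates was about as large as their mean, at -0.19 ± 0.14 (SD, n = 4). Amotl2 did not pass at -0.16 (standard error 0.06, limma adjusted p = 0.0535), and under median centring it was 0.04.

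Replicate 1 was set beside the other replicates gene by gene. Because this array had been singled out with earlier results known, the comparison is a description. Replicate 1 was the highest of the 4 replicates, that is the nearest to 0 among genes lower in 3D, for Axl, Ajuba, Lats2 and Ccn2, the lowest for Ankrd1 and Tead1, and within the range of the others for Ccn1 and Amotl2. Across all genes it was the highest in 28.2% and the lowest in 28.9%, and so outside the range of the others in 57%. It was the highest in 37.9% of the genes that passed as lower in 3D and the lowest in 37.2% of those that passed as higher. 

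The sizes of these gaps separated the members. Axl was 0.41 higher in replicate 1 than in the mean of replicates 2 to 4, whose SD was 0.06, and 1.83% of all genes had a larger gap in either direction. For Ajuba the gap was 0.39 beside an SD of 0.02, and 2.11% of genes had a larger one. In both genes replicate 1 lay outside the range of the other replicates. The gap was 0.27 for Lats2 (6.35% of genes larger) and 0.19 for Ccn2 (15.6%), and Ankrd1 went the other way, at -0.19 (14.3%). Tead1, Amotl2 and Ccn1 differed by -0.03, -0.05 and -0.11. The Ccn2 gap depended on the treatment of dim spots, with 0.70 at an offset of 0 and 1.13 with the processed signals. The Lats2 gap was 0.08 in the mean of both probes, of which the other probe was dim.

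**Figure D3:**
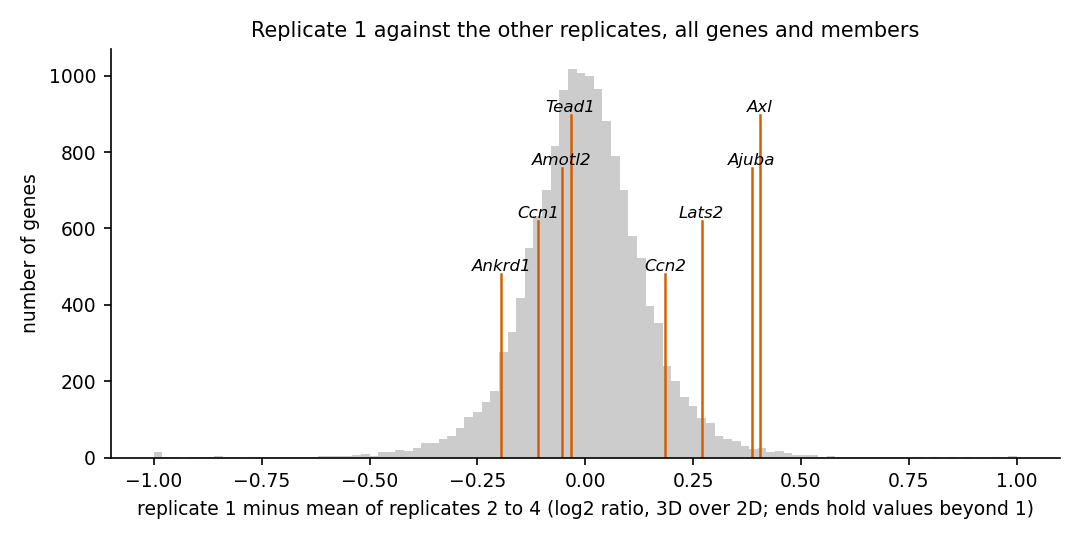
Replicate 1 minus the mean of replicates 2 to 4 (horizontal axis, log2 ratio of 3D over 2D), as a histogram of the number of genes in grey for all 15154 genes, with a line for each measured member. Axl at 0.41 and Ajuba at 0.39 stand in the right tail, Ankrd1 at -0.19 lies left of the centre, and Tead1 at -0.03 sits in the middle.

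Ajuba, Lats2 and Ccn2 were each read from a probe printed as 10 spots on each array, which shows the error within an array. For Ajuba the spots of replicate 1 ran from -0.30 to 0.00, and those of replicates 2 to 4 together from -0.64 to -0.35. For Lats2 the spots ran from -0.11 to 0.02 in replicate 1, from -0.32 to -0.12 in replicate 2 and from -0.54 to -0.29 in replicates 3 and 4. Spots of 1 array are not replicates, and their SD was 0.04 to 0.09 for Ajuba, 0.05 to 0.08 for Lats2 and 0.06 to 0.13 for Ccn2. The spots of Ajuba in replicate 1 did not meet those of replicates 2 to 4, whereas for Ccn2 the spots of replicate 1, from -1.22 to -1.03, overlapped those of the others.

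**Figure D4:**
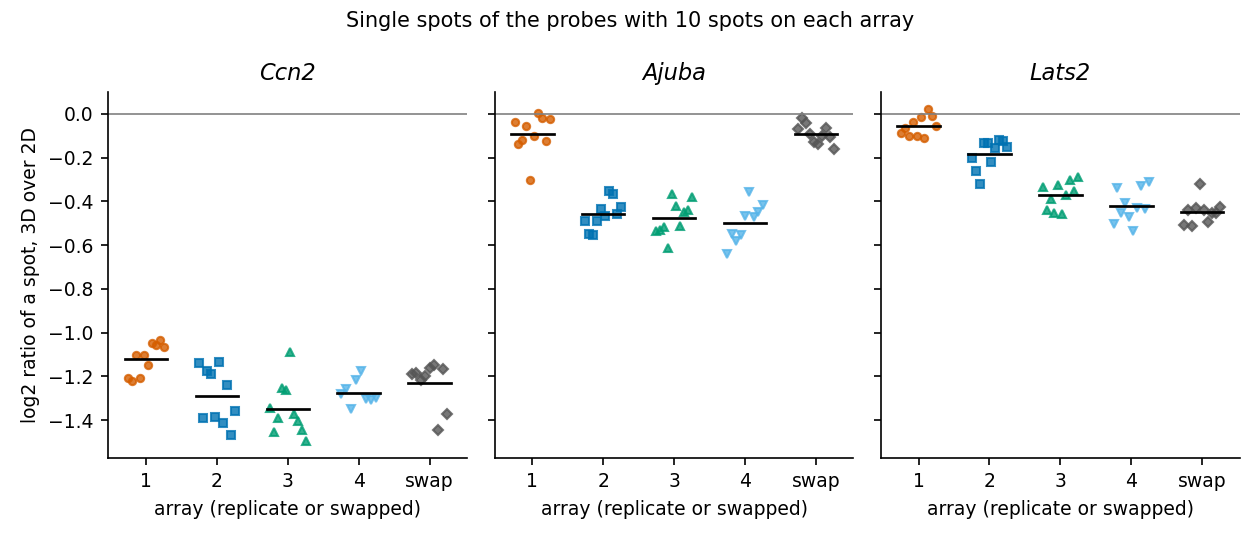
Log2 ratio of 3D over 2D (vertical axis) of each single spot of the Ajuba, Lats2 and Ccn2 probes that are printed as 10 spots on an array, for the 4 replicates and the swapped array. For Ajuba the spots of replicate 1 (-0.30 to 0.00) do not meet those of replicates 2 to 4 (-0.64 to -0.35), and those of Ccn2 overlap between arrays. When arrays are centred on the median, the log2 fold changes of Ajuba and Lats2 over the 5 arrays, which are not plotted here, are above 0 (0.21 and 0.24).

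Over all genes, the ratios of replicate 1 also stood slightly apart. Their slope on the mean of the other replicates, over the genes that passed, was 0.923, against 0.993 to 1.03 for the other arrays, and the SD of the difference was 0.151 against 0.115 to 0.12. For cell cycle genes, replicate 1 was the highest in 17 of 21 of them, with a list median of -0.49 against -0.73, -0.70 and -0.78 in replicates 2 to 4. Fibroblast markers had a summed 3D signal of 749.8 in replicate 1, 628, 459.5 and 417.9 in replicates 2 to 4 and 537.2 on the swapped array, against 307.6 to 408.2 in 2D, with Dcn, Lum, Pdgfrb and Thy1 not above background (4 of 8 were). Summed smooth muscle and muscle markers were 8911 in 3D in replicate 1, 5900 to 6804 in replicates 2 to 4 and 5456 on the swapped array, against 7109 to 9368 in 2D, with 4 of 8 above background. These sums are not scaled between arrays, and the summed 3D signal of the epithelial and thyroid markers was likewise highest in replicate 1, at 100600 against 81060 to 87000 in replicates 2 to 4. Endothelial markers (2 of 6 above background) summed to 102.3 to 125.6 in 3D and 82.7 to 116.4 in 2D, and leukocyte markers (3 of 8) to 1213 to 1876 and 1128 to 1482. Of these 3, Cd14 was above background on all 5 arrays in both conditions. Aif1 was so on 2 arrays in 3D and 1 in 2D, and Csf1r on 0 in 3D and 1 in 2D. The part of any of these differences of replicate 1 in the gaps of Axl and Ajuba was not tested. Without replicate 1 the log2 fold change was -0.88 for Axl, -0.38 for Ajuba, -0.36 for Lats2 and -1.29 for Ccn2, and each of these passed.

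As a list, the genes of coactivators and TEAD factors did not share the lower values of the measured members. Of 10 listed genes for YAP, TAZ, TEAD and VGLL proteins, 6 were measured, 2 passed as higher in 3D and none as lower, and the median was 0.12. Over all genes 14.4% passed as higher and 11.5% as lower. Tead2 had log2 ratios of 0.49, 0.33, 0.51 and 0.43 in the replicates and 0.14 on the swapped array. It passed at 0.38 (standard error 0.06, limma adjusted p = 6.41e-04). Tead3 was 0.32, 0.39, 0.39 and 0.35 in the replicates but -0.06 with dyes swapped, and it passed narrowly at 0.28 (standard error 0.07, limma adjusted p = 0.0096). Wwtr1, which encodes TAZ, had a log2 fold change of 0.20 and did not pass (limma adjusted p = 0.0455). With the processed signals or an offset of 0, neither Tead2 nor Tead3 passed, and without replicate 1, 2, 3 or 4 Tead3 did not pass either, at 0.27, 0.25, 0.25 and 0.26. Wwtr1 was named after its values were seen. Vgll2 was below background, and Tead4, Vgll1 and Vgll3 were not paired with a probe.

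Of 27 genes of the Hippo kinase cascade and its regulators, 19 were measured, with a median of -0.02. Of these, 4 passed as higher, 4 as lower and 11 did not pass. The 8 of 19 that passed are near the share over all genes above background, 43.4%. Ajuba and Lats2 are 2 of the 4 lower genes. Fat1, an atypical cadherin upstream of the cascade, was lower by -0.27 (standard error 0.05, limma adjusted p = 0.00393), with -0.06 in replicate 1 and -0.32, -0.37 and -0.39 in replicates 2 to 4. Csnk1e, a casein kinase 1 isoform, was at -0.22 (standard error 0.04, limma adjusted p = 0.00254). Both turned above 0 under median centring, at 0.24 and 0.16, and Csnk1e also in the mean of its probes, at 0.03. The higher genes were Csnk1d, another casein kinase 1 isoform (0.79, limma adjusted p = 8.67e-05), the kinase gene Taok3 (0.54, limma adjusted p = 0.00265), Limd1, a relative of Ajuba (0.45, limma adjusted p = 0.00611), and Btrc, a subunit of the ubiquitin ligase that recognizes phosphorylated YAP (0.32, limma adjusted p = 0.00651). Limd1 had 0.10 in replicate 1, 0.69, 0.69 and 0.67 in replicates 2 to 4 and 0.12 on the swapped array, so that the arrays nearest to 0 were those nearest to 0 at Ajuba. Csnk1e, Fat1, Limd1 and Btrc were named after their values were seen. With an offset of 0, 1 gene of this list passed as higher and 0 as lower. Of these calls, those of Fat1 and Limd1 were lost without replicate 2, 3 or 4 (-0.25, -0.24 and -0.23, and 0.39, 0.39 and 0.40), that of Taok3 without replicate 2 or 3 (0.48 and 0.54), that of Csnk1e without replicate 1 or 4 (-0.20 and -0.22) and that of Btrc without replicate 1, 2, 3 or 4 (0.30, 0.32, 0.27 and 0.30).

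Of 15 further YAP and TEAD targets, 10 were measured, and 1 passed as higher, 2 as lower and 7 did not, with a median of 0.00. The share over all genes was 25.9%, and 43.4% among those above background. Gadd45a, a growth arrest gene, was lowest at -1.66 (limma adjusted p = 3.68e-08), with values from -1.79 to -1.51 over the 5 arrays. F3, the gene of tissue factor, was at -0.79 (standard error 0.08, limma adjusted p = 5.80e-05). It had -0.57 in replicate 1 against -0.96, -0.90 and -1.03 in replicates 2 to 4, and -0.47 on the swapped array, so that the same arrays were nearest to 0 as at Ajuba. Asap1 was higher by 0.23 (limma adjusted p = 0.00107), with 0.20 to 0.28 on the 5 arrays. Of the 10 promoters of this list in the table, 1 held the TEAD letters, that of Nuak2.

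The families of the members themselves were split. In the CCN family, with 6 of 6 genes measured, Ccn1 and Ccn2 were the genes that passed, where 25.9% of all genes did. Ccn5 was at 0.15 and Ccn6 at -0.17 without passing (limma adjusted p = 0.0483 and 0.208), and Ccn3 and Ccn4 were below background. Among the 5 TAM receptors and ligands, Axl was lower while its relative Tyro3 was higher, at 0.73 (standard error 0.07, limma adjusted p = 2.08e-05), with 0.52, 0.89, 0.64 and 0.64 in the replicates and 0.96 on the swapped array. Mertk was at -0.01 (limma adjusted p = 0.960), and the ligand genes Gas6 and Pros1 were below background. Ccn5, Ccn6 and Mertk were named after their values were seen.

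Targets of pathways that share genes with YAP were also mixed, where 43.4% of all genes above background passed. Of 13 measured SRF and actin targets, 1 passed as higher (Fhl2 at 0.76, limma adjusted p = 4.08e-06) and 3 as lower, namely Zyx at -0.42 (limma adjusted p = 9.68e-05), Actg1 at -0.24 (0.00752) and Vcl at -0.22 (0.0072), with a list median of -0.10. Zyx, Actg1 and Vcl were above 0 under median centring, at 0.09, 0.19 and 0.28. In the mean of all probes of a gene, Zyx (-0.13) and Vcl (-0.11) did not pass. Of 9 measured TGF-beta targets, Id1, an inhibitor of basic helix-loop-helix factors, rose by 1.47 (limma adjusted p = 1.51e-06) and Smad7, an inhibitor of the TGF-beta receptor, by 1.29 (limma adjusted p = 1.58e-07). Smurf1 also passed as higher at 0.30 (limma adjusted p = 0.00222), Pmepa1 as lower at -0.60 (limma adjusted p = 0.00236), and the list median was -0.01. Pmepa1 was at 0.01 in replicate 1 against -0.58, -0.87 and -0.85 in replicates 2 to 4. Smurf1 was at 0.12 in the mean of its probes and did not pass there. Smurf1 and Vcl were named after their values were seen. The calls of Actg1, Vcl and Pmepa1 were lost without replicate 2, 3 or 4 (-0.23, -0.22 and -0.24, then -0.19, -0.20 and -0.21, then -0.61, -0.53 and -0.54), and that of Smurf1 without replicate 2 or 3 (0.28 and 0.30).

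**Figure D5:**
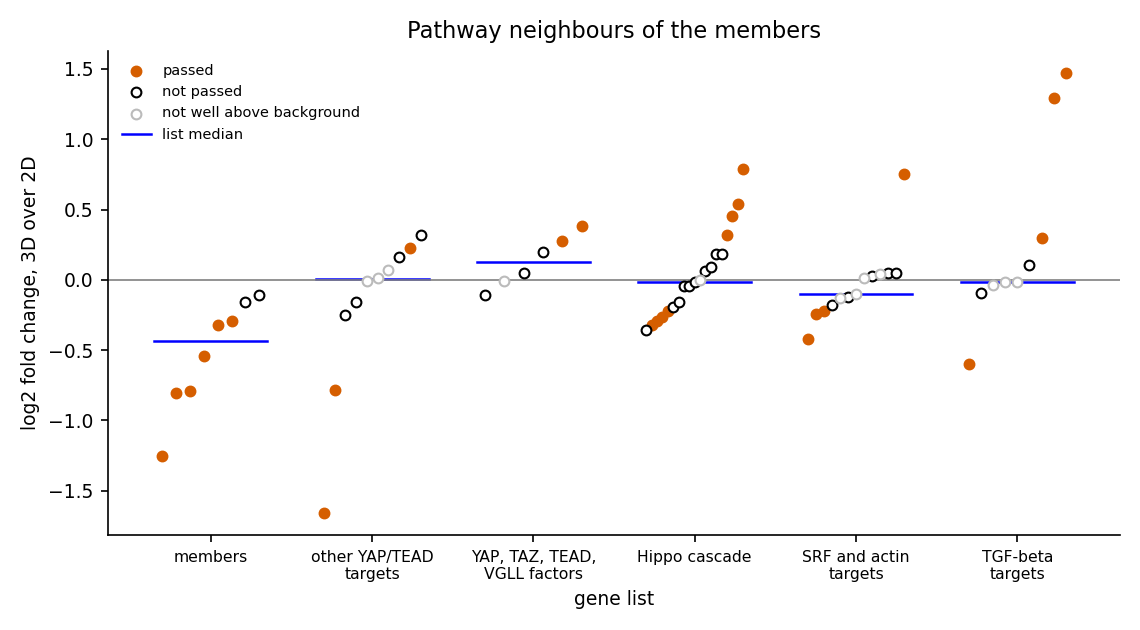
Log2 fold change of 3D over 2D (vertical axis) of each measured gene in the members and in the fixed lists of related genes, with filled points for genes that passed at an FDR of 0.01, open points for the others (grey where not well above background) and a line for each list median. The members have a median of -0.43, while the medians of the lists of factors (0.12), Hippo genes (-0.02) and other targets (0.00) lie near 0. Under median centring the members Amotl2, Lats2 and Ajuba lie above 0.

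The genes whose 5 ratios lay closest to those of a member were sought among 8450 genes well above background in both conditions, by the root mean square of the 5 differences. For Ccn2 these were Kifc1 (0.055), Racgap1 (0.070) and Ccnb1 (0.077), which encode a mitotic kinesin, a cytokinesis protein and cyclin B1. For Ccn1 they were Nars1 (0.056) and Wars1 (0.069), which encode aminoacyl-tRNA synthetases, and Abhd5 (0.070). For Ankrd1 they were the ribosomal protein gene Rpl9 (0.058), Ube2f (0.067) and Nampt (0.073), and each of these also had its smallest difference on the swapped array. None of these neighbours was another member. With 5 arrays, such likeness is a description of these hybridizations.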

How the data were processed

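RNA of 4 3D cultures, 1 pool of 2D cultures and 1 pool of 3D cultures was measured on 5 Agilent 2-colour rat arrays. The authors' spot intensity values are deposited as median pixel signals of spot and local background, without normalization. The processed intensities in the same scanner files, according to the file headers, were background-subtracted and dye-normalized by the Feature Extraction software, and its deposited log10 ratios are Cy5 over Cy3 of those signals. Flags for spots above background, saturated or marked as outliers are also deposited. The authors' value table holds log2 ratios made by normexp, loess and quantile normalization in limma. Set against the scanner values, each of its 5 columns gives 3D over 2D, and the column medians lie between -0.00639 and 0.00106.

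Here, median signals were corrected by normexp (offset 50) and normalized by loess with controls at weight 0, which leaves dim genes such as Ccn2 with compressed ratios. Spots marked as outliers (1.12% to 1.6%) were left out and spots of a probe were averaged, and genes with several probes took the brightest. The share of probes well above background in a channel was 45% to 50.9%. Accessions were paired with symbols through a RefSeq table of GRCr8, a later assembly than the array's design. Of 30367 probes, 17998 (59.3%) had a symbol, and 2605 of 15154 genes had more than 1 probe. Coordinates and promoters are those of RefSeq on GRCr8.

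Ratios were tested against 0 with limma 3.58.1 in R 4.3.3 (lmFit and eBayes, 1 coefficient, 5 arrays, prior degrees of freedom 5.12) with Benjamini-Hochberg adjustment over all genes at an FDR of 0.01. In data simulated over 15154 genes, 100 of them changed at each size, the fit recovered 84% of log2 changes of 0.5 and 99% of those of 1. It called 0 others. The simulated noise was normal and independent between arrays, with the SD of each gene over the 5 arrays. It held no error of the shared 2D pool, no dye effect and no link of the swapped array with the replicates. These figures are therefore not error rates of the real arrays. The replicates are labelled as biological. All arrays lay on 1 slide with 1 scan, so no batch could be tested, and the number of arrays limits the precision. No set test was used.

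All members were named, as were the 3 nearest genes of Ccn1, Ccn2 and Ankrd1. Each list of pathway or family genes gave up to 2 rising and 2 falling genes, those with the largest changes that passed and lay above background. The cell cycle and marker lists were read as a whole. Of 21 cell cycle genes, 15 passed as lower in 3D and none as higher, beside 11.5% and 14.4% of all genes. Among markers Pax8 (0.71), Pdgfra (0.55), Cdh16 (0.53) and Epcam (0.28) passed as higher, and Tnnt2 (-0.51) and Cldn4 (-0.485) as lower. Epcam passed in 7 and Pax8 in 13 of the 16 alternatives given below, and the other markers named in 15. The members and lists were chosen with earlier results of these data known. Alternatives were an offset of 0, Agilent's processed signals, quantiles over all channels, median centring, the deposited table, removal of dim probes, outlier spots kept, the mean of all probes, a dye term, no swapped array, array weights, each replicate left out and an FDR of 0.05.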

Additional observations from a re-analysis of the deposited data

Results flagged for a closer look

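For groups of 4 replicates, the gap between the most extreme value and its nearest neighbour was divided by the whole range and compared with Dixon's 95% critical value. Chance exceeds it in about 1 in 20 groups, and 4 of the 32 genes, probes and list medians examined did, 3 of them through replicate 1. These items share the same arrays, some share genes, and the genes outside the members were taken for their large changes. Replicate 1 had also been singled out with earlier results known, so the count is a description. For Ajuba the ratio was 0.900, as replicate 1 had a log2 ratio of -0.09 and the others -0.46 to -0.50. For the dimmer Axl probe, not used for the gene, it was 0.904, with -0.32 in replicate 1 and -0.51 to -0.49 in the others. For the Axl probe used for the gene the ratio was 0.75 and did not exceed the critical value, so the flag held for the other probe alone. For Csnk1d it was 0.853, with 0.79 in replicate 1 and 0.93 to 0.95 in the others. The median of the CCN family gave 0.841 through replicate 4, where it was -0.45 against -0.11 to -0.05, and Ccn6, which was above background on 1 of 5 arrays in 2D and on none in 3D, stood at -0.68 in that replicate.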

How the results depend on the processing

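No paired analysis was possible because the 2D cultures were pooled, so that no 2D sample shares a number with a 3D replicate. Over the 16 alternatives Ccn1, Ccn2, Ankrd1 and Axl were lower in all and passed in 15. Lats2 passed in 10, Ajuba in 9, and Tead1 and Amotl2 in 0. Where arrays were centred on the median in place of loess, 0 genes passed as lower and 7 as higher (100% of calls, against 55.6% with loess), 0 members passed, and the log2 fold changes were -0.43 for Ccn1, -1.10 for Ccn2, -0.11 for Ankrd1, -0.40 for Axl, 0.044 for Amotl2, 0.24 for Lats2 and 0.21 for Ajuba. Median centring subtracts 1 value per array, so a dye difference that varies with signal stays in the ratios. The 3D cultures were in red on 4 arrays and in green on 1. Before loess, the background-subtracted Lats2 signal was 2603 in 3D and 1073 in 2D in replicate 1. On the swapped array it was 800 in 3D and 2583 in 2D. The part of this in the changed values was not tested. Lats2 and Ajuba also missed the threshold with an offset of 0 (-0.32 and -0.35) and with the processed signals (-0.31 and -0.35), and Ajuba with a dye term (-0.24). With 1 replicate left out, Lats2 ranged from -0.36 to -0.26 and Ajuba from -0.38 to -0.28. With an offset of 0, 1044 genes passed as lower and 1178 as higher, and with the processed signals 1443 as higher, against 1741 and 2177.

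Counts in the related lists were small, and those that moved by over 1.5 times are given here. Hippo genes that were lower (4) numbered 0 with an offset of 0 or median centring, 1 with the processed signals, 2 with a dye term and 0 to 4 with a replicate left out. Those that were higher (4) numbered 1 with an offset of 0, the processed signals or a dye term, 0 with median centring and 1 to 3 with a replicate left out. Factors that were higher (2) numbered 0 with an offset of 0, the processed signals or median centring, and 1 with quantiles over all channels, the deposited table, a dye term or any replicate left out. Other targets that were lower (2) numbered 0 with median centring and 4 with array weights, and those that were higher (1) numbered 0 with an offset of 0 or median centring and 3 without the swapped array, with array weights or at an FDR of 0.05. SRF targets that were lower (3) numbered 1 with an offset of 0, the processed signals or the mean of all probes, 0 with median centring and 1 to 4 with a replicate left out, and those higher (1) numbered 0 with median centring. TGF-beta targets that were lower (1) numbered 0 with an offset of 0, the processed signals or median centring and 0 to 1 with a replicate left out, and those higher (3) numbered 0 with median centring.

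The gap of replicate 1 kept its sign for each member except Tead1 (0.044 with median centring, -0.10 with an offset of 0) and Amotl2 (0.012 with median centring). For Ccn2 it was 0.70 with an offset of 0, 1.13 with the processed signals, 0.28 with quantiles over all channels, 0.36 with median centring and 0.27 in the deposited table. For Ankrd1 it was -0.32 with the processed signals. For Ajuba it was 0.41, 0.34 and 0.31 with an offset of 0, the processed signals and median centring. For Axl it was 0.54 and 0.51 with an offset of 0 and the processed signals, and 0.30 in the mean of all probes, where Lats2 had 0.079. Dim spots limit Tead1 and Ccn2 in 3D.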
